A study of Mus musculus with 9 samples.

Results

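The lymphocyte miRNAs described here are mmu-miR-150-5p, mmu-miR-150-3p, mmu-miR-342-3p, mmu-miR-342-5p, mmu-miR-181a-5p and mmu-miR-181b-5p, 6 of the 1881 mouse miRNAs on the array. The prefix mmu, for mouse, is left off below. They were chosen by name, as miRNAs known to be enriched in lymphocytes, and by no rule on measured values. Earlier results of these data were known when they were chosen. Their levels were read in lung tissue of 9 mice, 1 single-colour Agilent miRNA array per mouse, with 3 mice in each group. Codonopsis mice received Codonopsis pilosula, a root of traditional Chinese medicine, at 15 g per kg for 30 days. Model mice received D-galactose and sodium nitrite, a treatment used to imitate ageing, for 42 days. Control lungs carry no treatment in the labels. Whether the D-galactose treatment was also given to the codonopsis group is not stated in the labels, which give neither strain nor age.

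MicroRNAs are short RNAs that lower the output of messenger RNAs matching their seed, the bases near the 5′ end. miR-150 is abundant in mature B, T and natural killer cells and represses Myb, a transcription factor of immature blood cells. miR-342 is made from within the Evl gene and is prominent in lymphocytes. miR-181a sets the sensitivity of the T cell receptor in the thymus by repressing phosphatases, and miR-181b lowers the antibody-diversifying enzyme AID in activated B cells. The miR-181 strands are also made by many cells other than lymphocytes, endothelium among them.

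RefSeq sequences (GRCm38.p6) matched 5 of the 6 members. They are shown because the seed, in capitals (bases 2 to 8), decides which members share targets.
miR-150-3p: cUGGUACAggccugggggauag
miR-342-5p: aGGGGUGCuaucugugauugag
miR-342-3p: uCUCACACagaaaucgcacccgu
miR-181a-5p: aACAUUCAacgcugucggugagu
miR-181b-5p: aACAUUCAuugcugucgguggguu
miR-181c-5p: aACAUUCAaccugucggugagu
miR-181d-5p: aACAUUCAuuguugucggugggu

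Among these 5 members only the miR-181 strands shared a seed, and it was held by 4 mature mouse miRNAs of the table, all 4 on the array and all 4 detected on every array. The seeds of miR-150-3p and of both miR-342 strands were each held by 1 mature miRNA. Counted from the 5′ end, miR-181a-5p and miR-181b-5p differed at 3 of 23 compared positions (A9U, C10U and A21G, with the base of miR-181a-5p first), all outside the seed. miR-181b-5p and miR-181d-5p differed at 1 of 23 (C12U). Cross-hybridisation between the probes of these near-identical strands was not tested.

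The Mir150 gene lies at chr7:45121757-45121821, within no other annotated gene. Mir342 lies at chr12:108658620-108658718 within the span of Evl, a regulator of the actin skeleton. miR-181a-5p and miR-181b-5p each come from 2 loci and cannot be assigned to either one. Mir181a-1 and Mir181b-1 stand 97 bases apart on chromosome 1 (chr1:137966455-137966541 and chr1:137966639-137966718). Mir181a-2 and Mir181b-2 stand 1019 bases apart on chromosome 2 within the span of Nr6a1, a nuclear receptor gene. The hairpins of Mir342 and Mir181a-1 are shown with both mature strands in capitals, since the strands of one hairpin were read separately.
Mir342: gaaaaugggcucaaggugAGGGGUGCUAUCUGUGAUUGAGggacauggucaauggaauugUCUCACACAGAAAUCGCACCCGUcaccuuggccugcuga
Mir181a-1: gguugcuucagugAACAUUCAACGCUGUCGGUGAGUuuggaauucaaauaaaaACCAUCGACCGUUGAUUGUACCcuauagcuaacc

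Per array, 375 to 484 miRNAs were detected, and the 75th percentile of the signal lay between 394 and 538 on every array but control 1, where it was 245. Control 1 stood apart, with a median correlation to the other arrays of 0.911 against 0.974 to 0.987 for the rest. The members' differences from control are therefore also given without it. All controls lay on 1 slide and the other 6 arrays on another, so in any comparison with control the slide cannot be told apart from the group. Codonopsis 1, codonopsis 2 and control 1 came from male mice. The arrays carry no messenger RNA, so the lymphocyte content of the lungs was not read otherwise, and in whole lung fewer lymphocytes and less miRNA per lymphocyte cannot be told apart.

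Of the 6 members, miR-150-5p, miR-342-3p, miR-181a-5p and miR-181b-5p were detected on all 9 arrays. Levels below are log2 of the background-corrected signal over the 75th percentile of each array, so that 0 marks that percentile. miR-150-3p, the partner strand of miR-150-5p, was detected on none of the 9 arrays, and its processed signal was below 0 throughout, from -3.66 to -1.24. miR-342-5p was detected on 2 arrays of each group, and the arrays that missed it were codonopsis 3, model 1 and control 1. Where detected, its level was -6.64 and -6.25 in codonopsis, -6.95 and -6.64 in model and -6.65 and -7.44 in control lungs, with processed signals of 2.51 to 5.75. Because no group detected it throughout, miR-342-5p was not among the 404 tested miRNAs. A fit of the 650 miRNAs detected on at least 1 array, which includes the 3 arrays without a detected signal, gave it differences of 0.27 (SE 0.53) for model minus control, 0.18 (SE 0.53) for codonopsis minus model and 0.45 (SE 0.53) for codonopsis minus control. Its limma adjusted p was 0.828, 0.978 and 0.725, and 0% of the 650 passed in each comparison, with 6.77%, 7.54% and 11.7% at an unadjusted p under 0.05.

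**Figure D1:**
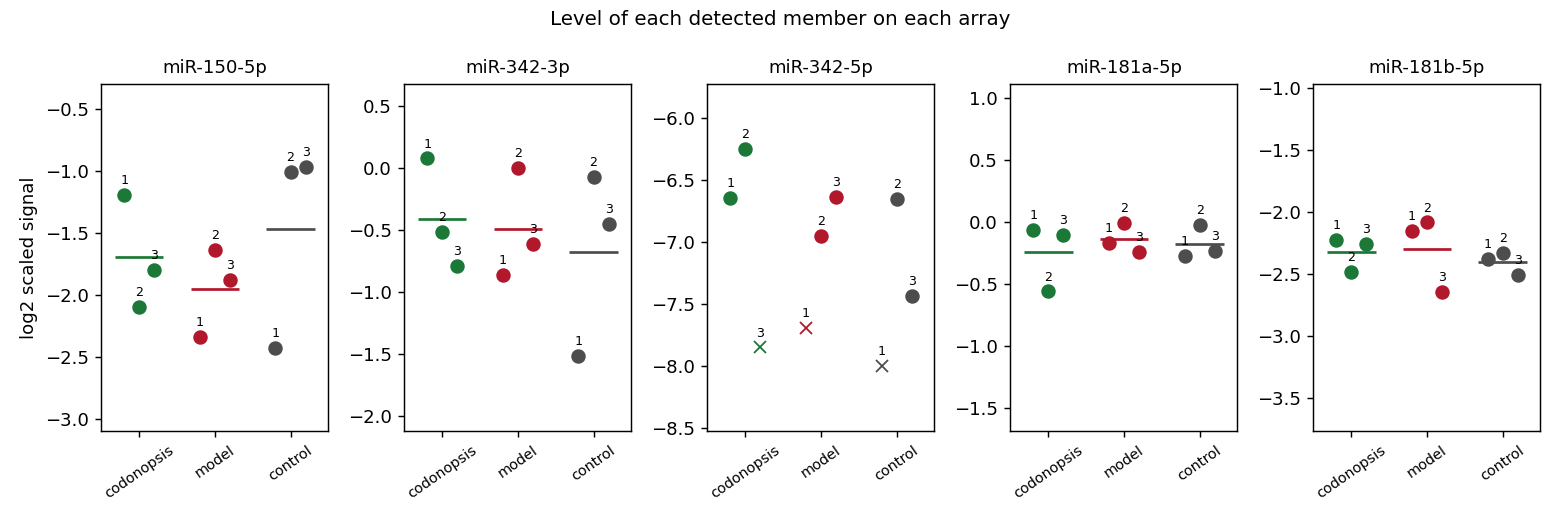
Log2 scaled signal (vertical axis, 0 is the 75th percentile of the array) of the 5 detected members on each array, with codonopsis, model and control from left to right, the replicate number above each point, and a line at the group mean, except for miR-342-5p. Crosses mark arrays that did not detect miR-342-5p, and every panel spans the same range, so that the wide scatter of miR-150-5p and miR-342-3p can be seen beside the narrow scatter of the miR-181 strands.

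miR-150-5p varied most within the controls. Its level was -1.19, -2.10 and -1.80 in codonopsis lungs, -2.34, -1.64 and -1.88 in model lungs, and -2.43, -1.01 and -0.97 in control lungs. Controls 2 and 3 lay above all 6 treated lungs, while control 1 was the lowest of the 9. The means were -1.70 ± 0.46 in codonopsis, -1.95 ± 0.36 in model and -1.47 ± 0.83 in control lungs (SD, n = 3 each). Model minus control, at -0.49, was larger in size than the SD of model lungs and smaller than that of control lungs. Both probes of miR-150-5p placed control 1 lowest. The authors' deposited log2 table, which is normalised in another way, gave 5.84, 4.98 and 5.46 in codonopsis, 5.01, 5.54 and 5.25 in model, and 3.68, 6.12 and 6.05 in control lungs.

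miR-342-3p, from the Evl hairpin, had a similar scatter. Its level was 0.075, -0.52 and -0.79 in codonopsis lungs, -0.86, 0.00 and -0.61 in model lungs, and -1.52, -0.076 and -0.45 in control lungs. The 3 groups overlapped, and control 1 was again the lowest lung. Means were -0.41 ± 0.44 in codonopsis, -0.49 ± 0.44 in model and -0.68 ± 0.75 in control lungs (SD, n = 3 each).

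The miR-181 strands were steadier. miR-181a-5p read -0.065, -0.56 and -0.11 in codonopsis lungs, -0.17, -0.0093 and -0.24 in model lungs, and -0.28, -0.027 and -0.24 in control lungs. miR-181b-5p read -2.22, -2.48 and -2.26 in codonopsis lungs, -2.16, -2.08 and -2.65 in model lungs, and -2.38, -2.33 and -2.51 in control lungs. Control 1 was within the range of the other lungs for both strands, the lowest being codonopsis 2 for miR-181a-5p and model 3 for miR-181b-5p. Group means of miR-181a-5p were -0.24 ± 0.28 in codonopsis, -0.14 ± 0.12 in model and -0.18 ± 0.13 in control lungs, and those of miR-181b-5p -2.32 ± 0.14, -2.30 ± 0.31 and -2.41 ± 0.093 in the same order (SD, n = 3 each).

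The spread between mice of a group set the members apart from each other. Among the 289 miRNAs detected on all arrays, the within-group SD of miR-150-5p was 0.59, which ranked 39th from the most variable, and that of miR-342-3p was 0.56 (42nd). For miR-181b-5p it was 0.20 (192nd) and for miR-181a-5p 0.19 (204th), with a median of 0.25 over all 289. From the lowest to the highest lung, miR-342-3p spanned 3.02-fold and miR-150-5p 2.75-fold, against 1.47-fold for miR-181a-5p and 1.48-fold for miR-181b-5p. Without control 1 the SD was 0.37 for miR-150-5p (45th) and 0.41 for miR-342-3p (36th), and 0.20 and 0.22 for miR-181a-5p and miR-181b-5p, which then ranked 132nd and 114th beside a median of 0.19. Feature Extraction's own error of the total signal on an array had a median of 8.29% for miR-150-5p, 7.21% for miR-342-3p, 7.85% for miR-181a-5p and 7.55% for miR-181b-5p. This reported error was thus alike for the 4 strands. The scatter of replicate spots within an array was not computed.

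**Figure D2:**
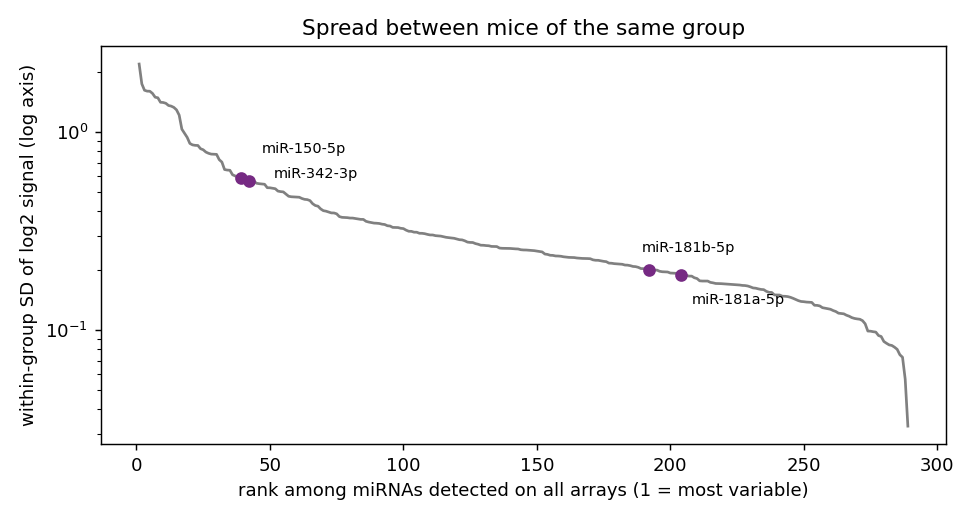
Within-group SD of the log2 signal (vertical log axis) of the 289 miRNAs detected on all arrays, ordered from the most to the least variable (horizontal axis, rank), with the 4 members as points. miR-150-5p and miR-342-3p stand at ranks 39 and 42, and miR-181b-5p and miR-181a-5p at ranks 192 and 204.

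The comparison of model with control asks what differed after D-galactose and sodium nitrite. No lymphocyte miRNA passed the limma test, 0 of 4 tested members beside 0 of 404 tested miRNAs (0%), and the 4 members did not reach an unadjusted p under 0.05, which 11.6% of all tested miRNAs did. miR-150-5p differed by -0.49 (SE 0.43, 95% interval -1.49 to 0.52, limma adjusted p = 0.616), 0.714-fold in model against control lungs. Scaled to the 75th percentile over all miRNAs, detected or not, this difference was 0.085, where the median of all tested miRNAs was 0.62. miR-342-3p differed by 0.19 (SE 0.42, interval -0.78 to 1.16, limma adjusted p = 0.877). The intervals of the miR-181 strands were narrower, from -0.35 to 0.44 around 0.041 for miR-181a-5p and from -0.30 to 0.52 around 0.11 for miR-181b-5p, which for miR-181a-5p is 0.782-fold to 1.35-fold and for miR-181b-5p 0.811-fold to 1.44-fold. The median of the 4 was 0.075, against 0.040 over all tested miRNAs, and the groups overlapped for all 4, whereas they did not for 23.3% of tested miRNAs.

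Leaving out control 1 moved miR-150-5p most. Its difference between model and control was then -0.96 (SE 0.30, interval -1.68 to -0.25), with an unadjusted p of 0.0156 and a limma adjusted p of 0.316 across the 404 miRNAs, of which 12.6% had an unadjusted p under 0.05 and 0% passed. Both probes of miR-150-5p gave a like difference without control 1, -0.93 and -0.97. miR-342-3p was then at -0.23, the opposite sign, with an interval from -1.03 to 0.57. miR-181a-5p stood at -0.0077 and miR-181b-5p at 0.12. Without control 1 the differences of miR-342-3p and miR-181a-5p thus changed sign and that of miR-150-5p moved by more than its SE, and 2 control lungs remain. These signs did not depend on control 1 alone. Without model 2 instead, miR-342-3p was at -0.057 and miR-181a-5p at -0.025.

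Markers of leukocytes at large were read beside these values. miR-142a, made by all blood cells, and miR-223, made by neutrophils and other myeloid cells, had 3 of 4 listed strands detected on every array, while miR-223-5p was detected on none. Their summed linear level was 2.47 to 3.95 in model lungs and 2.26 to 9.53 in control lungs, with control 1 at the low end. All 3 tested strands were below control in model lungs, with differences of -0.93 (miR-142a-3p), -0.25 (miR-223-3p) and -0.18 (miR-142a-5p), and none passed. Without control 1 these differences were -1.42, -0.74 and -0.90. The part of leukocyte content in the values of miR-150-5p was not tested.

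Codonopsis was compared with model on arrays of 1 slide, to ask what differed after the plant. Of the members, 0 of 4 passed, beside 0 of 404 tested miRNAs (0%) in limma, and the 4 did not reach an unadjusted p under 0.05, against 10.6% of all. miR-150-5p differed by 0.26 (SE 0.43, interval -0.75 to 1.26, limma adjusted p = 0.765) and miR-342-3p by 0.082 (SE 0.42, interval -0.89 to 1.06). miR-181a-5p differed by -0.10 (interval -0.50 to 0.29) and miR-181b-5p by -0.025 (interval -0.44 to 0.39). Their median of 0.028 stood beside -0.11 over all tested miRNAs, and the groups overlapped for all 4, while 37.1% of tested miRNAs did not overlap. Without control 1, which changes only the estimate of the spread here, 0 of 4 members passed, beside 8.66% of the 404 and 27.7% at an unadjusted p under 0.05. In a fit of the 6 arrays of this slide alone, the interval of miR-150-5p was -0.46 to 0.97 and that of miR-342-3p -0.68 to 0.85. Male and female lungs were unequal between these groups, and with sex as a covariate the difference of miR-150-5p was 0.69 (SE 0.48, limma adjusted p = 0.764). Model lungs were all female and the only male control was control 1, so the sex term also takes in that outlying lung. Male control 1 read -2.43 beside -1.01 and -0.97 in the female controls. In codonopsis the male lungs read -1.19 and -2.10 and the female lung -1.80. The male codonopsis lungs lay on slide row 1 and the female one on row 2, so within this group sex cannot be told apart from row. All model lungs lay on row 2.

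Against control, codonopsis lungs gave 0 of 4 members past the limma threshold, beside 4 of 404 tested miRNAs (0.99%), and none of the 4 members reached an unadjusted p under 0.05, against 14.4% of all. miR-150-5p differed by -0.23 (SE 0.43, interval -1.24 to 0.78, limma adjusted p = 0.88), miR-342-3p by 0.27 (interval -0.70 to 1.24), miR-181a-5p by -0.064 (interval -0.46 to 0.33) and miR-181b-5p by 0.085 (interval -0.33 to 0.50). Groups overlapped for all 4, beside 12.6% of tested miRNAs without overlap. Without control 1, miR-150-5p was at -0.71 (SE 0.30, interval -1.43 to 0.0081, limma adjusted p = 0.164) in a fit where 11.4% of the 404 miRNAs passed and 30.4% had an unadjusted p under 0.05, and miR-342-3p was at -0.15, miR-181a-5p at -0.11 and miR-181b-5p at 0.098. Quantile normalization of all 9 arrays turned the sign of miR-150-5p, to 0.16, and there the 404 tested miRNAs had a median of 0.19. In the fit without control 1, 1 of the 3 tested leukocyte strands passed against control, miR-142a-3p at -1.39 (limma adjusted p = 0.0257). There miR-142a-5p at -0.91 and miR-223-3p at -0.89 did not pass (limma adjusted p = 0.0975 and 0.305). With all 9 arrays miR-142a-3p differed by -0.90 and did not pass. The summed level of the leukocyte list was 2.40 to 3.72 in codonopsis lungs against 2.26 to 9.53 in control lungs. These 3 comparisons share groups, so their values are not independent of each other. For a single member the exact permutation test of 3 against 3 arrays cannot go below a two-sided p of 0.1, and its values for the members were 0.4 to 0.9.

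**Figure D3:**
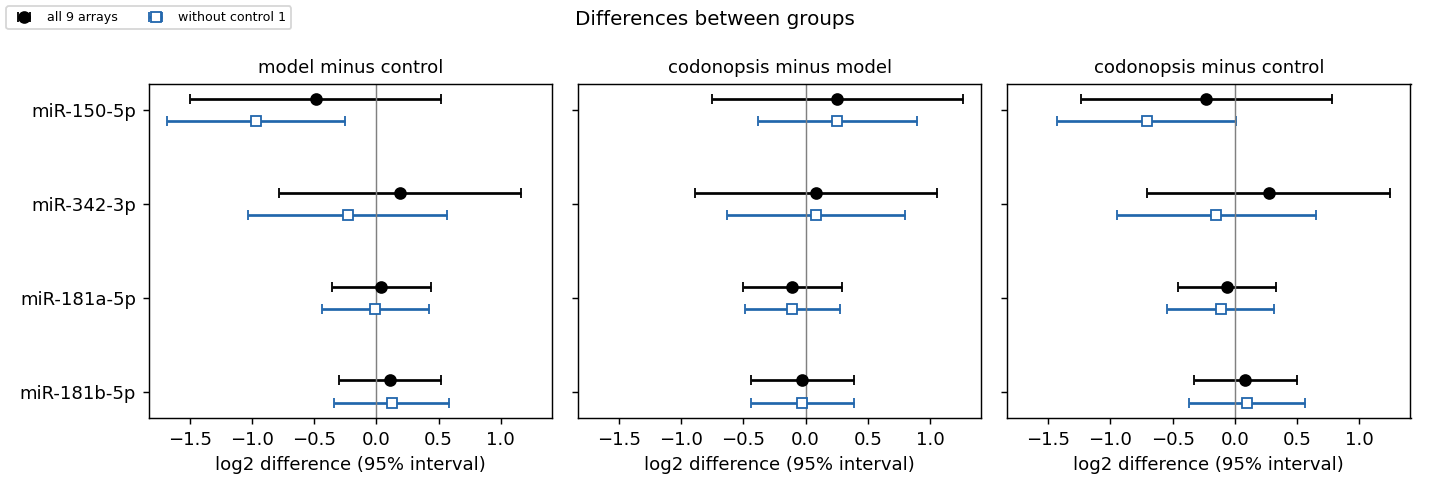
Log2 difference with its 95% interval (horizontal axis) of the 4 tested members in the 3 comparisons, from the fit of all 9 arrays (filled circles) and without control 1 (open squares). Only the interval of miR-150-5p for model minus control without control 1, -1.68 to -0.25, leaves out 0.

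Across the 9 lungs, miR-150-5p and miR-342-3p were the most closely correlated of the 6 pairs, with Pearson's r = 0.76 (exact permutation p = 0.0152) and Spearman's rho = 0.78 (exact permutation p = 0.0172). Adjusted over the 6 pairs of detected members, neither passed (0.0911 and 0.103). Without the 2 lungs farthest from the median of miR-150-5p, r was 0.86. It was 0.67 without control 1 and 0.82 within the 6 codonopsis and model lungs. After subtraction of the group means r was 0.91 (permutation p adjusted over the 6 pairs 0.00557). Centred values of a group depend on each other and were permuted across groups, so this p is not exact and may be too small. On the same centred values, miR-150-5p had r = 0.94 with both miR-142a strands and 0.92 with the endothelial miR-126a-3p. An r of this size was thus not particular to lymphocyte miRNAs. miR-181a-5p and miR-181b-5p had r = 0.62 (exact permutation p = 0.068, adjusted 0.204) and rho = 0.72 (exact permutation p = 0.0369, adjusted 0.111), with r = 0.58 without the 2 farthest lungs and 0.62 without control 1. Among the 4 pairs that join a miR-181 strand with miR-150-5p or miR-342-3p, r was between -0.034 and 0.47, with adjusted exact permutation p of 0.363 to 0.93 for r and 0.162 to 0.982 for rho, and without control 1 r was between -0.084 and 0.44. With the 75th percentile over all miRNAs as the scale all 6 pairs passed, and 4 of them did with quantile normalization and with the authors' deposited log2 table. Against the main scale, that percentile shifts all miRNAs of an array by the same amount, members and others alike. All tested miRNAs then had medians of 0.62 for model minus control and -0.47 for codonopsis minus model. The share of other miRNA pairs that passed in these settings was not computed. Pairs with miR-150-3p or miR-342-5p were not computed, since these were below detection on some or all arrays.

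The miRNAs most like miR-150-5p across the 9 arrays, out of 285 others detected on all of them, were miR-142a-5p (r = 0.90), miR-142a-3p (r = 0.86) and miR-30c-5p, a widely made miRNA (r = 0.85). These likenesses describe arrays that share groups and 1 lung that stands apart. Without control 1 they were 0.91, 0.89 and 0.81, and within the 6 codonopsis and model lungs 0.81, 0.81 and 0.60. miR-223-3p ranked 11th (r = 0.71), miR-146a-5p, a brake on inflammatory signalling, 46th (r = 0.47), and miR-155-5p, induced in activated lymphocytes and macrophages, 54th (r = 0.45). The erythroid miR-451a ranked 280th of 285 (r = -0.65). Controls 2 and 3 above all 6 treated lungs with control 1 lowest, an order chosen after its values were seen, was held by 7 of the 289 miRNAs detected on all arrays (2.42%). These were miR-150-5p itself, miR-142a-5p, miR-30c-5p, miR-101c, miR-16-5p, miR-218-5p and miR-374c-5p. Control 1 alone was lowest for 29.8% of the 289.

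**Figure D4:**
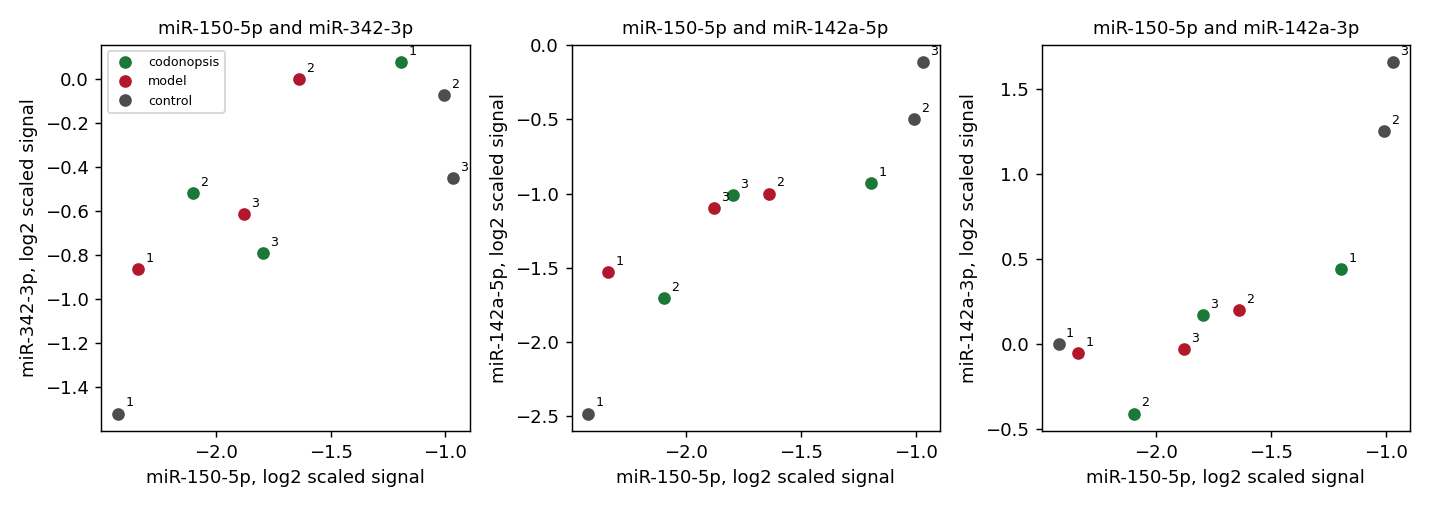
Log2 scaled signal of miR-342-3p, miR-142a-5p and miR-142a-3p (vertical axes) against that of miR-150-5p (horizontal axes), 1 point per lung with its replicate number, coloured by group. miR-142a-5p follows miR-150-5p through all 9 lungs (r = 0.90), with control 1 lowest on both axes and controls 2 and 3 highest.

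For miR-342-3p the most alike were let-7f-5p, of the growth-restraining let-7 family (r = 0.76), miR-193a-3p (r = 0.72) and miR-181c-5p (r = 0.72), but without control 1 these were 0.41, -0.098 and 0.60, so the likeness to miR-193a-3p rests on that lung. For miR-181a-5p they were miR-744-5p (r = 0.77), miR-24-2-5p (r = 0.75) and its seed relative miR-181c-5p (r = 0.74), at 0.79, 0.80 and 0.76 without control 1. miR-181a-5p ran opposite to miR-451a (r = -0.85, last of 285), and without control 1 the value was -0.84.

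No other miR-181 entry passed. Of 8 listed, 4 were detected on no array, miR-181b-1-3p on control 1 alone, and miR-181c-5p, miR-181d-5p and miR-181a-1-3p were tested, with 0 of 3 passing in any comparison. miR-181c-5p averaged -2.54 ± 0.34 in codonopsis, -2.53 ± 0.13 in model and -2.60 ± 0.27 in control lungs, and miR-181d-5p -3.73 ± 0.26, -3.79 ± 0.093 and -3.90 ± 0.19 in the same order (SD, n = 3 each). miR-181a-1-3p, the partner strand of miR-181a-5p in the Mir181a-1 hairpin above, averaged -4.20 ± 0.41, -4.40 ± 0.31 and -4.16 ± 0.19. Their differences lay between -0.25 and 0.20 over the 3 comparisons. The median of the 3 strands was 0.067 for model minus control and 0.061 for codonopsis minus control with all 9 arrays, and of opposite sign without control 1, at -0.063 and -0.069. All 4 strands with the miR-181 seed were low on codonopsis 2, where each read 0.14 to 0.37 below its mean. This was not particular to the seed. Codonopsis 2 was also the lowest of the 9 arrays for miR-142a-3p, miR-126a-5p and miR-31-5p, and the highest for miR-451a and miR-486a-5p. The share of all miRNAs that were low on it was not computed.

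**Figure D5:**
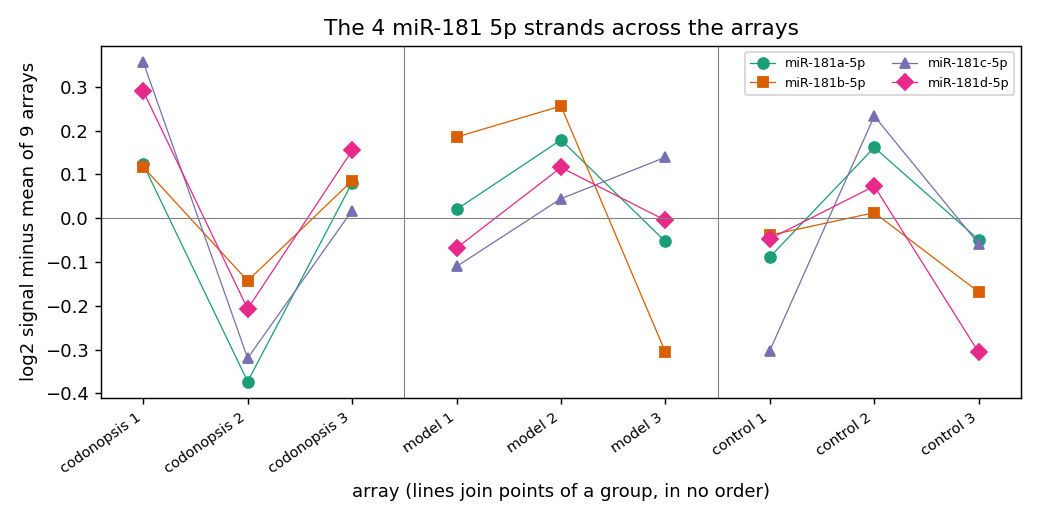
Log2 signal of the 4 miR-181 5p strands minus the mean of each over the 9 arrays (vertical axis), for codonopsis, model and control arrays from left to right; lines join the arrays of a group and imply no order. On codonopsis 2 all 4 strands lie below their mean, and some miRNAs without this seed were low there too.

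Of 12 other miRNAs linked to lymphocyte activation and development, among them miR-155-5p, miR-146a-5p and strands of the miR-17 to miR-92a cluster that sustains lymphocyte growth, all 12 were tested and none passed in any comparison. For model against control 7 were higher and 5 lower, with a median of 0.089 beside 0.040 over all miRNAs, but without control 1 only 5 of the 12 were higher and the median was -0.077. For codonopsis against model all 12 were lower, with a median of -0.15 beside -0.11, and 244 of the 404 tested miRNAs were lower too. For codonopsis against control 4 were higher and 8 lower, with a median of -0.061 beside -0.031, and without control 1 only 1 was higher and the median was -0.25. miR-155-5p differed by -0.044 in model against control, -0.027 in codonopsis against model and -0.071 in codonopsis against control lungs, with SE 0.25 throughout. With all 9 arrays, none of the tested markers of erythroid cells, endothelium, lung epithelium, multiciliated cells, or smooth muscle and fibroblasts passed the limma test in any comparison. Without control 1, 1 endothelial marker passed for codonopsis against control, miR-126a-5p at -1.09 (limma adjusted p = 0.0319), named after its values were seen, in the fit where 11.4% of the 404 miRNAs passed. The other listed strand, miR-126a-3p, had the opposite sign, at 0.19 with all 9 arrays, and without control 1 the list again held 1 higher and 1 lower strand.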

How the data were processed

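Lung RNA of 9 mice was labelled with Cy3 and hybridised to Agilent mouse miRNA arrays, 1 per mouse. The authors' scanner files hold intensity from Feature Extraction 11.5.1.1, per the file headers, where the submitters' processing notes give 10.10. Per the file headers, this intensity was background-corrected within each array, and no scaling between arrays was found. Detection calls, also deposited, are flags. Columns of the deposited log2 table correlated with the matching array's log2 total signal at r of 0.994 to 0.999. How it was normalized is not given in the sources used here. Some of its values recur exactly on different arrays, such as 6.8973 for miR-181a-5p on codonopsis 1, codonopsis 3 and model 2. Quantile normalization gives such shared values, so the deposited table and the quantile setting may not be independent alternatives.

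Flagged spots (3.05%) were left out, spots of a probe and then probes of each miRNA were averaged (2 probes for the bright members, 4 for miR-150-3p and miR-342-5p), divided by the array's 75th percentile over the 289 miRNAs detected everywhere, floored at log2 -8 and logged. No member spot was saturated. The 404 miRNAs detected on all 3 arrays of a group were tested in 1 limma fit (3.58.1, R 4.3.3) with group as factor, 6 residual degrees of freedom, two-sided moderated tests and Benjamini-Hochberg adjustment over all 404 at a threshold of 0.05. The fit was tested on simulated data. With 3 mice a group, p-values reflect only the variation among these animals, and precision is limited by the array number. Normexp used the median spot signal. Alternatives were other scalings, signals, probes, filters, arrays left out and covariates. Members, lists and the rule for named miRNAs (all members, the lists, and the 3 highest correlations with each of 3 members) were chosen with earlier results of these data known.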

Additional observations from a re-analysis of the deposited data

How the results depend on the processing

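Of 252 alternative differences of the 4 tested members (21 settings, 3 comparisons), none passed the threshold (smallest adjusted p 0.164, miR-150-5p for codonopsis minus control without control 1), and 33 changed sign. Taking the 75th percentile over all miRNAs moved the median of all tested miRNAs to 0.62 for model minus control, -0.47 for codonopsis minus model and 0.18 for codonopsis minus control, where it had been 0.040, -0.11 and -0.031. That setting gave miR-150-5p 0.085 for model minus control and -0.10 for codonopsis minus model, miR-342-3p -0.28 for codonopsis minus model and miR-181a-5p 0.15 for codonopsis minus control. Relative to the median of all tested miRNAs, miR-150-5p was at -0.53 for model minus control under both this and the original scaling. Both divide each array by a single number, so apart from floored values this could not differ. Relative to that median, miR-150-5p was at -0.38 with the deposited log2 values, -0.38 with quantile normalization and -0.37 with normexp. The deposited and quantile values may share a normalization, so they may not be independent of each other. For codonopsis minus control, quantile normalization gave miR-150-5p 0.16 and miR-181a-5p 0.12, and the authors' deposited log2 values gave 0.14 and 0.13, where all tested miRNAs had medians of 0.19 and 0.17. Normexp gave miR-181b-5p -0.0065 for codonopsis minus control. With the brightest probe, miR-181a-5p was at -0.081 for model minus control and 0.060 for codonopsis minus model, and miR-181b-5p was at 0.14 for codonopsis minus model. With sex as a covariate, miR-181a-5p was at -0.018 for model minus control and 0.012 for codonopsis minus model. With slide row as a covariate, it was at -0.17 and 0.032 in these comparisons, and for codonopsis minus model miR-342-3p was at -0.30 and miR-181b-5p at 0.041. Model arrays all lay on row 2 and controls all on row 1. The row term therefore rests on the codonopsis arrays, where row and sex coincide. The cause of these changes of sign was not tested.

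Leaving out 1 array at a time, model minus control ranged from -0.96 to -0.24 for miR-150-5p, -0.23 to 0.49 for miR-342-3p, -0.025 to 0.12 for miR-181a-5p and 0.0046 to 0.29 for miR-181b-5p. Codonopsis minus model ranged from 0.005 to 0.46 for miR-150-5p, -0.16 to 0.33 for miR-342-3p, -0.19 to 0.053 for miR-181a-5p and -0.20 to 0.080 for miR-181b-5p. Codonopsis minus control ranged from -0.71 to 0.020 for miR-150-5p, -0.15 to 0.57 for miR-342-3p, -0.15 to 0.094 for miR-181a-5p and 0.033 to 0.17 for miR-181b-5p. The number of member pairs with a correlation past the threshold, 0 of 6, became 6 under the 75th percentile over all miRNAs, 4 under quantile normalization and 4 for the deposited log2 values. With group means removed the number was 1, by a permutation p that is not exact. With 1 array left out it was 0 to 1, the 1 being without control 3. How many pairs of other miRNAs passed in these settings was not computed. No paired analysis was possible because the labels do not tie a mouse of one group to a mouse of another. Normexp was run on median spot signals, since the scanner data hold no mean spot signal, which had been planned.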
